A study of Capra hircus with 3 samples.

Results

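The small RNAs (sRNAs) of catagen skin were compared with those of anagen skin in the Shanbei White cashmere goat, a breed kept for its fine undercoat. Members of the comparison were all distinct clean sequences, called tags, with at least 10 reads in either library, which were 73220 of the 2388170 tags of both libraries and of the 4043974 tags of the whole series. Each stage was represented by 1 library made from total RNA of the mixed skin of 10 adult goats, sampled as about 1 cm2 of skin, and the goats shared breed and tissue and differed in the stage of the hair cycle (anagen, catagen or, in the third library, telogen). Levels are given as RPM, the reads scaled to a library of 1000000 clean reads, and ratios are catagen over anagen on the log2 scale. Numbers given as reads are not scaled, and the telogen library had the most clean reads. With 1 library for each stage there was no replicate check, so every test or interval given here compares libraries and covers counting error only, and a difference between stages cannot be told apart from a difference between pools.

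Anagen is the growth phase of the hair follicle (HF), catagen the phase in which the lower follicle regresses, and telogen the resting phase. MiRNAs are RNAs of about the length of the 22-nt class that are cut from a hairpin by Drosha and Dicer and pair with target mRNAs mainly through the seed, bases 2 to 8 from the 5′ end. Cutting sites vary and the ends are trimmed or extended by single bases, so a miRNA is read as a family of tags with different 3′ ends, called isomiRs. The 5′ end varies less, because a shift there changes the seed.

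The reads of the members were 89.99% of all clean reads in anagen (15997828 reads) and 90.98% in catagen (18111912 reads). Of the members, 41969 reached 10 reads in both libraries and 70386 were also read in telogen (27016012 clean reads). Members that did not reach 10 reads in both entered through the library in which they had more reads. This can add calls in either direction. A count of 0 allows up to 3 reads, or 0.188 RPM in anagen and 0.166 RPM in catagen. A miRNA arm is a sequence built from the tags that the authors list for a conserved miRNA. A miRNA with sequences that do not overlap has a most-read arm, which carries the plain name here, and a second arm. The copy of the list used is shortened, so the most-read arm is that among listed sequences. Better-read tags of a miRNA can fall on no listed arm. In all, 3875 members fell on 287 arms of 222 miRNAs and held 46.68% of the clean reads in anagen and 46.29% in catagen. Another 69236 members fell on no listed arm and held 42.99% and 44.35%.

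The most abundant tags of the arms that carried the comparison were the following, each written as the cDNA in the files, 5′ to 3′, with the seed in capitals. The let-7 tags held the most reads, and all of them share a seed.
let-7a: tGAGGTAGtaggttgtatagtt
let-7f: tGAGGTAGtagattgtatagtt
let-7b: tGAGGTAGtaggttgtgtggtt
let-7c: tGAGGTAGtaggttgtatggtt
let-7i: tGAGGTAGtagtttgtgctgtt
The tags of miR-1, miR-206 and miR-133a, which had the largest ratios among arms with at least 100 reads in each library, are shown next, and miR-1 and miR-206 share a seed.
miR-1: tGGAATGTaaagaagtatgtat
miR-206: tGGAATGTaaggaagtgtgtgg
miR-133a: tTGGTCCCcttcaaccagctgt
The last set holds miR-152 and miR-148a, which share a seed and of which miR-152 was called, the miR-125b and miR-100 tags, and both arms of miR-143, which moved by different amounts.
miR-152: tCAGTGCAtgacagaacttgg
miR-148a: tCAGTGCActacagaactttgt
miR-125b: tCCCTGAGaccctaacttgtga
miR-100: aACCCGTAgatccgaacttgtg
miR-143: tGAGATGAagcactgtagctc
miR-143 second arm: gGTGCAGTgctgcatctct

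An arm counted as called if its log2 ratio lay outside -1 to 1 and its two-sided exact Audic-Claverie p was under 0.01, the limits of the study. Of the 287 arms, 67 were higher in catagen (23.3%) and 19 were lower (6.62%), and the median log2 ratio of all arms was 0.49. The split of calls followed the scaling. With size factors from the median of ratios over arms, which move all ratios down by 0.48, 28 arms were higher and 33 lower. Among the 147 arms with at least 100 reads in both libraries, 23 were higher (15.6%) and 6 lower (4.08%), 19.7% in all, with a median of 0.32. The ratios of single arms given next are to be read against these medians.

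**Figure D1:**
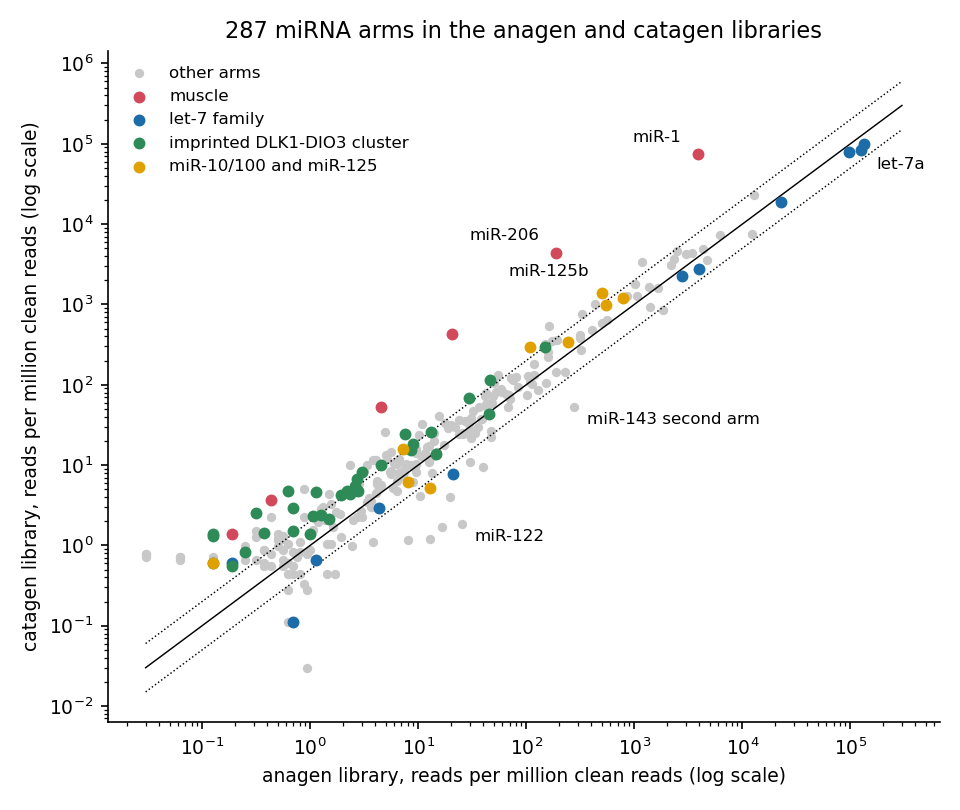
Level of 287 miRNA arms in the anagen library (x axis) and the catagen library (y axis), both in RPM on a log scale, with values under 0.03 drawn at 0.03. The solid line marks equal levels and the dotted lines a log2 ratio of 1 in either direction, and colours mark 4 lists of miRNAs. The 6 arms of the muscle list lie far above the line, and let-7a lies just below it.

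Among arms with at least 100 reads in each library, the 3 largest ratios were those of muscle miRNAs, which promote the differentiation and the contractile programme of skeletal and cardiac muscle. MiR-1 was read 62470 times in anagen, 1337613 times in catagen and 539751 times in telogen, or 3905, 73853 and 19979 RPM. Its log2 ratio was 4.24 (95% interval 4.23 to 4.25). Catagen was thus the highest library and anagen the lowest, with telogen between them.

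MiR-206, which shares the seed of miR-1, had 3048, 79873 and 33093 reads in the same order, a log2 ratio of 4.53. MiR-133a had 327, 7721 and 3793 reads, a log2 ratio of 4.38. MiR-133b had 72, 949 and 527 reads, a log2 ratio of 3.54. Each of these arms had telogen between the other libraries. All 6 arms of the list, from 4 of its 6 miRNAs, were called higher in catagen, against 23.3% of all arms. No tag on a listed arm reached the minimum for miR-208b and miR-499, the other members. The list took 0.412% (anagen), 7.88% (catagen) and 2.14% (telogen) of the clean reads. In bulk tissue, more cells of a type and more RNA in each cell cannot be told apart, and the part of muscle tissue in the samples in these values was not tested. Beside this list, the median log2 ratio was 0.03 for the list of epithelium and keratinocytes and 0.68 for that of dermal fibroblasts and mesenchyme.

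Outside the muscle list, 61 of 281 arms were higher and 19 lower. When the reads of the muscle list were left out of the library totals, 77 arms were higher and 17 lower. That scaling was chosen after the data had been seen.

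The let-7 family, which restrains proliferation and promotes differentiation in many tissues, was the most abundant group in both libraries. Let-7a was read 2142499 times in anagen, 1803417 times in catagen and 2484914 times in telogen, or 133924, 99571 and 91979 RPM. Let-7f had 126586, 84388 and 75188 RPM. Let-7b had 97005, 80003 and 80103 RPM. All of these were lower in catagen than in anagen, and their telogen levels were close to catagen or lower, but the most abundant let-7b tag taken alone had a log2 ratio of 0.10.

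The log2 ratios were -0.43 for let-7a, -0.59 for let-7f, -0.28 for let-7b and -0.26 for let-7c. None of these passed the limit on the ratio when scaled to clean reads. Over the list, 0 of 11 arms were called higher and 2 were called lower, beside 23.3% higher and 6.62% lower over all arms. The median of the list was -0.52, beside 0.49 over all arms. The arms called lower were let-7d and the second arm of let-7f, neither of which carries the let-7 seed at bases 2 to 8 (the let-7d tag was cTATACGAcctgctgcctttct), and the latter had only 11 and 2 reads. To take in sequences that no list names, all 1282 members of 18 to 25 nt with the let-7 seed were summed. They held 401945 RPM in anagen and 299008 RPM in catagen, a log2 ratio of -0.43. The 827 of these on no listed arm had a log2 ratio of -0.45. With median-of-ratios size factors 4 of the 11 listed arms were called lower, among them let-7f (-1.07). With muscle reads left out of the totals, 1 was called lower.

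The imprinted DLK1-DIO3 cluster, a large group of miRNAs expressed from the maternal chromosome, had the most calls of any list. Of its 32 arms, from 20 of the 32 miRNAs of the list, 19 were called higher and 0 lower, with a median of 1.13, beside 23.3% and 6.62% and a median of 0.49 over all arms. Counts were low for most of them. The best-read arm, miR-154c, was read 2364 times in anagen, 5384 times in catagen and 3201 times in telogen, a log2 ratio of 1.01. In RPM telogen was the lowest library for this arm. MiR-379 had 744, 2100 and 2717 reads, a log2 ratio of 1.32, and miR-495 had 122, 444 and 699 reads, a log2 ratio of 1.68. MiR-382 (234 and 247 reads, log2 ratio -0.10) and miR-411a (722 and 782 reads, -0.06) were not called. With median-of-ratios size factors 7 of the 32 arms were higher and 0 lower, and at a biological coefficient of variation set to 0.4 (edgeR exact test) 4 were higher. Only 12 arms of the list reached 100 reads in either library. Of these, 8 were higher and 0 lower, beside 38 higher of all 178 arms that reached it.

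The miR-10/100 and miR-125 families, which sit in and beside the Hox clusters and the let-7 clusters, had 3 arms higher and 1 lower among 9, with a median of 0.86, beside 23.3% higher and 6.62% lower over all arms, so these counts are near the background. MiR-125b was read 8011 times in anagen, 25175 times in catagen and 44364 times in telogen, a log2 ratio of 1.47 (1.44 to 1.51). MiR-100 had 1728, 5297 and 5642 reads, a log2 ratio of 1.44. Anagen was the lowest library for both. The arm called lower was the second arm of miR-125b, with 207 and 95 reads. With the median-of-ratios scaling the ratio of miR-125b was 0.99 and that of miR-100 was 0.96, and no arm of the list was called higher.

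Among the other best-read arms, miR-199a, a miRNA of fibroblasts and mesenchyme, had 12738 RPM in anagen and 23333 RPM in catagen, a log2 ratio of 0.87 that was not called. MiR-152 was read 18858 times in anagen, 61578 times in catagen and 43544 times in telogen, a log2 ratio of 1.53, and was called. MiR-148a, which shares its seed, had 193 RPM in anagen and 359 RPM in catagen, a log2 ratio of 0.89 that was not called. Together the seed CAGTGCA had a log2 ratio of 1.45. MiR-320a (0.21), miR-140 (0.17) and miR-101 (-0.42) among the most-read arms were not called. The remaining arms with the largest ratios among called arms that reached 100 reads in each library were miR-6529 (175 and 589 reads, 1.57), the second arm of miR-365 (249 and 734 reads, 1.38) and the second arm of miR-2904 (2610 and 9629 reads, 1.70). The last is an unusual arm, with 82 tags whose 5′ ends were scattered.

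Only 6 arms with at least 100 reads in both libraries were called lower. MiR-222, which acts on the cell cycle inhibitor p27 and on KIT, was read 29532 times in anagen, 15401 times in catagen and 33229 times in telogen, a log2 ratio of -1.12. Its cluster partner miR-221 had 5166, 4847 and 5987 reads, a log2 ratio of -0.27 that was not called. The second arm of miR-143 had 4438, 952 and 1723 reads (-2.40) and the second arm of miR-33a had 643, 170 and 311 reads (-2.10). MiR-502a had 480 and 198 reads (-1.46), let-7d 338 and 141 reads (-1.44) and miR-331 754 and 402 reads (-1.09). In RPM, telogen exceeded catagen for each of the 6 called arms, and exceeded anagen for miR-331. Of the 65 arms that are not the most-read arm of their miRNA, 10 were higher and 9 lower, beside 57 and 10 of the 222 most-read arms.

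In the lists of other cell types that skin can hold, counts of called arms are to be read beside the 23.3% higher and 6.62% lower of all arms. They cover listed arms only, and tags of a list member that fall on no listed arm are left out. In the epithelium and keratinocyte list (11 arms of 9 of 11 miRNAs) 1 arm was higher and 1 lower, with a median of 0.03, and miR-205, the best-read member and a miRNA of basal keratinocytes, had 1008 RPM (anagen), 1791 RPM (catagen) and 1859 RPM (telogen). The call upward was miR-31 (119 and 283 reads) and the call downward the second arm of miR-205 (207 and 22 reads). In the list of dermal fibroblasts and mesenchyme (8 arms of 7 of 10 miRNAs) 0 listed arms were higher and 1 was lower. MiR-143 itself had 12413 RPM in anagen and 7465 RPM in catagen, a log2 ratio of -0.73.

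In the red blood cell list 1 of 4 arms was higher and 0 lower, with a median of 0.56, and miR-144, with 1641 and 1354 reads, had a log2 ratio of -0.46. MiR-451 had 856 RPM in anagen and 1258 RPM in catagen, and miR-486 was called higher with 330 and 768 RPM. MiR-122, the miRNA of liver cells, was read 406 times in anagen, 33 times in catagen and 32 times in telogen, a log2 ratio of -3.80 (-4.36 to -3.29). Anagen was thus far above both other libraries for this miRNA. In the immune list, 1 of 6 arms was higher and 1 lower, with a median of 0.52. MiR-126, of endothelium, had 573 and 545 reads. Beside the same shares over all arms, 1 of 9 arms of the miR-17-92 list was higher (miR-93), with arms for 6 of its 12 miRNAs. In the list of cell cycle brakes, with arms for 5 of 11 miRNAs, 2 of 6 were higher (miR-15a and miR-497). No listed arm was called of 4 in the miR-30 list and of 7 in the list of miR-23, miR-24 and miR-27. The listed arms of miR-30e and miR-30a had 701 and 587 reads in anagen. Tags of these families on no listed arm were not counted. The neural list held only miR-9, with 5 and 23 reads, called higher.

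Length differed between the libraries as well as level. Fragments of 18 to 30 nt had been cut from a gel before sequencing, and the files hold tags of 18 to 44 nt. The share of clean reads at 18 to 20 nt was 10.6% in anagen (Wilson 95% interval 10.59 to 10.62) and 7.58% in catagen (7.57 to 7.59), beside 6.29% in telogen. The 19-nt class was the one with the lowest ratio below 23 nt, with 3.76% in anagen and 2.02% in catagen. The 22-nt class held 35.86% in anagen and 38.37% in catagen, and the class of 31 to 35 nt held 5.74% and 4.44%. Short reads that had been discarded before the files were made came to 3.38% (anagen), 2.66% (catagen) and 0.566% (telogen) of the high-quality reads, so the class below 18 nt moved the same way. The paper treats the proportion of ribosomal RNA (rRNA) as a measure of sample quality. It gives the highest value for anagen and the lowest for telogen, and judged the samples to be of high quality. The part of RNA quality in these values was not tested.

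**Figure D2:**
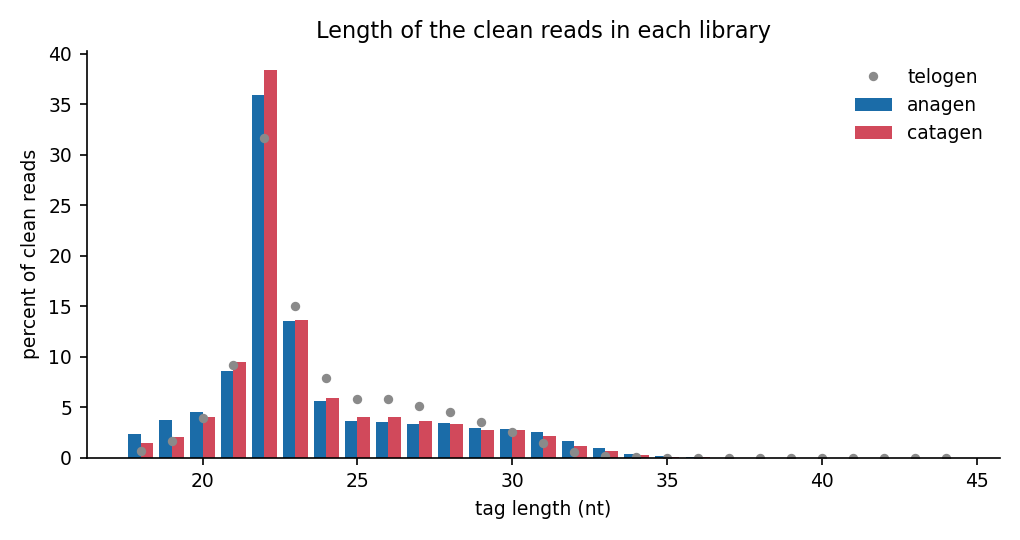
Percent of clean reads (y axis) at each tag length in nt (x axis) in the anagen and catagen libraries (bars) and the telogen library (points). Anagen bars are taller than catagen bars at 18 to 20 nt, and catagen bars are taller at 21 and 22 nt.

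On miRNA arms the difference in short reads was larger. Tags of 18 to 20 nt held 6.05% (anagen), 2.26% (catagen) and 3.38% (telogen) of the arm reads. Let-7b held the most of these reads, and without it the shares were 4.94% and 2.26%. Of the 594 tags of 18 to 20 nt on arms, 42 were called higher and 248 lower, with a median log2 ratio of -0.94, beside 18% higher and 14.4% lower over all tags on arms. Of the 2297 tags of 21 to 23 nt, 444 were higher and 227 lower, with a median of 0.32. Over all 73220 members, 20.7% were called higher and 21.3% lower.

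The same held within arms. Among the 64 arms that reached 1000 reads in each library, the share of reads of 18 to 20 nt was lower in catagen in 59 and higher in 2 (miR-2904 and miR-221), and its median was 6.44% (anagen), 1.80% (catagen) and 2.88% (telogen). Telogen lay between the others in 43 of the arms. The share of reads that end before the most abundant tag of the arm was lower in catagen in 50 arms and higher in 13, and mean tag length was higher in catagen in 52. When only tags that match their listed sequence to the last base were used, 44 of 57 arms were lower.

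**Figure D3:**
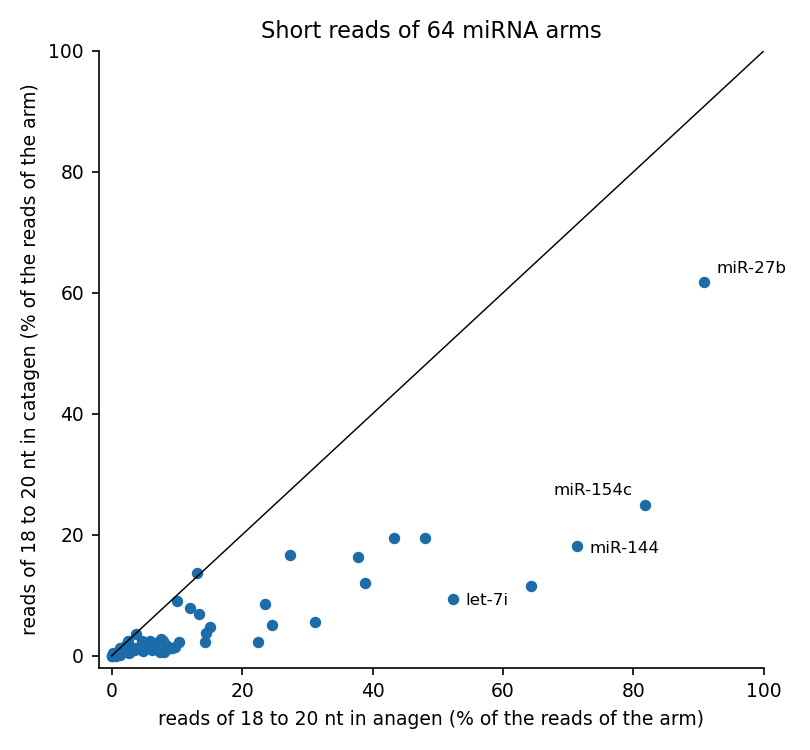
Reads of 18 to 20 nt as a percent of the reads of the arm, in anagen (x axis) and catagen (y axis), for the 64 miRNA arms with at least 1000 reads in both libraries. Most points lie below the line of equal shares, and miR-154c, miR-144 and let-7i lie far below it.

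The arms with the largest falls in reads that end early were miR-154c (86.2% (anagen), 28.4% (catagen) and 78.8% (telogen)), miR-660 (66.9%, 15.5% and 50.6%), miR-144 (83.5%, 33.2% and 76.5%), let-7i (59.5%, 17.97% and 41.6%) and miR-93 (59.4%, 22.1% and 40.1%). All of these were lowest in catagen. The largest rises were on the second arm of miR-2904 (62.6% to 73.1%), miR-2904 (31.4% to 40.1%), miR-340 (15.6% to 22.5%), miR-100 (28.7% to 34.0%) and miR-2285e (45.5% to 50.2%).

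In let-7i the reads that end 3 nt before the tag printed above made up 38.5% of the arm in anagen and 5.14% in catagen, and those that end at the tag 20.01% and 48.1%. In let-7b the reads that end 3 nt early numbered 98707 (anagen), 8781 (catagen) and 50637 (telogen), while let-7b as a whole differed by a log2 ratio of -0.28. Let-7a and let-7f hardly shifted, with 1.72% and 1.35% of reads at 18 to 20 nt for let-7a and 1.33% and 1.21% for let-7f. Short reads were thus not equally frequent among members of a family that differ at a few bases.

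**Figure D4:**
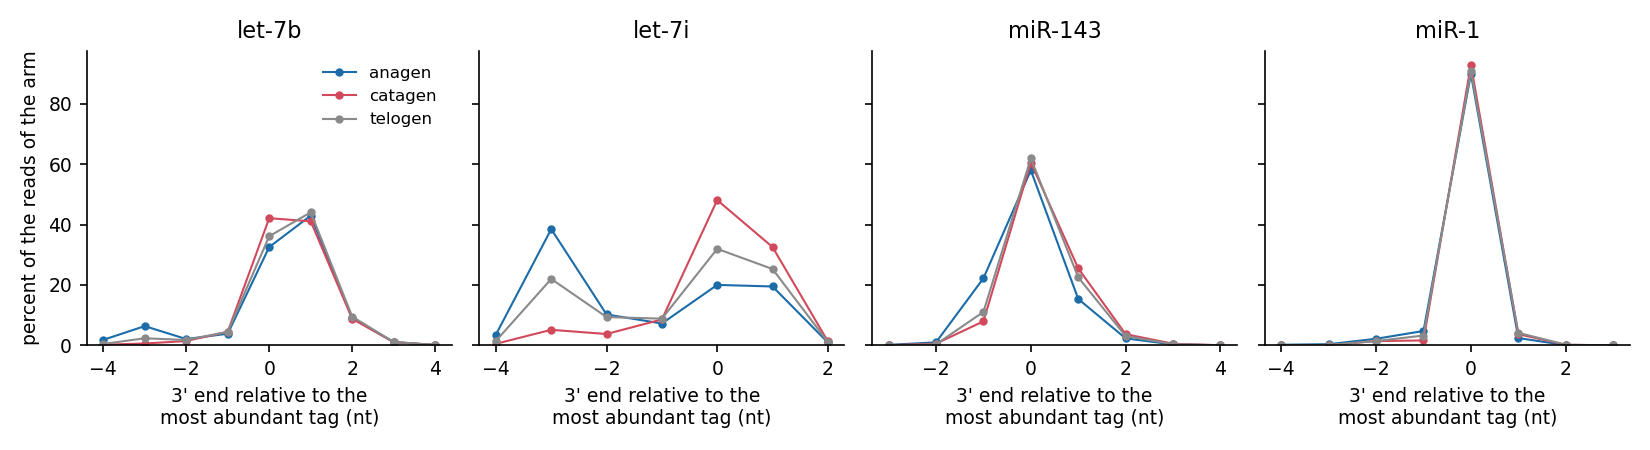
Percent of the reads of an arm (y axis) that start at the first base of its most abundant tag, by where their 3′ end lies relative to the end of that tag in nt (x axis), for let-7b, let-7i, miR-143 and miR-1 in the 3 libraries. Anagen has a separate peak at -3 nt for let-7i, with 38.5% of reads against 5.14% in catagen, while miR-1 has nearly the same profile in all libraries.

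The shift changed which arms were called. When only tags of 21 nt or longer were used, the log2 ratio of the second arm of miR-143 went from -2.40 to -0.08, since its reads of that length were 498 and 532. MiR-27b went from -0.57 to 1.49, miR-144 from -0.46 to 1.06, miR-382 from -0.10 to 2.33 and miR-154c from 1.01 to 3.05. MiR-502a went from -1.46 to 2.28, but with only 2 and 11 reads. The listed sequence of miR-27b ends at 18 nt, so its longer tags were counted only up to 3 bases beyond that. MiR-222, miR-331, let-7d and the second arm of miR-33a were called lower under both rules. With tags of 21 nt or longer, 84 arms were higher and 11 lower.

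Tags with bases added at the 3′ end that the listed sequence does not hold were compared next, since non-templated A and U are added to miRNAs by terminal nucleotidyl transferases. Added T (U in the RNA) made up 15.8% of the let-7i reads in anagen and 25.9% in catagen, and 15.1% and 24.9% of the miR-143 reads. For miR-152 it went from 40.3% to 34.8%. Over the 64 arms the share with added T was higher in catagen in 31 and lower in 21, and that with added A was higher in 36 and lower in 21, so no common direction stood out. The largest change in added A was in miR-100, from 31.2% to 24.2%, and the largest rise was in miR-101, from 5.98% to 11.4%. An added base can equal the genomic one, and no hairpin sequences were used here. The shares count tails that differ from the listed sequence where that sequence goes on. Tails that begin where the listed sequence ends were left out.

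The 5′ end moved little. Reads that start at another base than the most abundant tag had a median share of 0.511% in anagen and 0.396% in catagen over the 64 arms, lower in 34 and higher in 15. The largest rise was in miR-140, a miRNA best known from cartilage, from 30.4% (30.1 to 30.8) to 47.0% (46.7 to 47.3), with 37.6% in telogen. It was followed by miR-142 (15.2% to 21.3%), miR-1307 (22.05% to 26.8%), miR-2285e (13.9% to 15.9%) and miR-101 (42.0% to 43.6%). The largest falls were in miR-2887 (87.5% to 66.4%), the second arm of miR-2904 (87.4% to 67.2%), miR-2904 (80.7% to 71.6%), miR-2284x (50.3% to 46.8%) and miR-10a (12.5% to 10.2%). Since a shifted start moves the seed, these arms were read with different proportions of seeds.

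Some miRNAs had reads on both listed arms. Among 53 miRNAs that reached 100 reads in each library, the share of the second arm was higher in catagen in 25 and lower in 28. The Wilson intervals did not overlap in 11 and 14 of these. For miR-33a, a miRNA encoded in a sterol regulator gene, the second arm held 68.3% of the reads in anagen (65.2 to 71.2), 24.3% in catagen (21.2 to 27.6) and 32.4% in telogen, so the more-read arm changed. The other large falls were in miR-885 (27.9% to 8.87%), miR-362 (45.1% to 27.7%), miR-1307 (18.8% to 2.55%) and miR-652 (27.0% to 11.2%). The largest rises were in miR-2904 (28.5% to 52.7%), miR-382 (36.8% to 52.8%), miR-142 (3.24% to 12.1%), miR-181a (21.8% to 29.3%, intervals overlapping) and miR-144 (8.48% to 15.9%). For miR-382 the direction turned with tags of at least 21 nt, where the second arm had 47 reads beside 33 of the other arm in anagen and 208 beside 188 in catagen.

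Among the 69236 members on no listed arm, 20.8% were called higher and 21.7% lower. Tags with the largest ratios among those with at least 1000 reads in both libraries came in sets that share a start and end at different bases, and they are shown because their ratios go in opposite directions from base to base. Capitals mark the bases that the longer tags hold and the shortest tag of each set does not.
24 nt: tgcagttaaaaagctcgtagttgg
25 nt: tgcagttaaaaagctcgtagttggA
26 nt: tgcagttaaaaagctcgtagttggAT
20 nt: tattgcacttgtcccggcct
22 nt: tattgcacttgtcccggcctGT
The 24-nt tag was read 7937 times in anagen, 1478 times in catagen and 18353 times in telogen, a log2 ratio of -2.60, while the 25-nt tag had 1923, 6773 and 9584 reads (1.64) and the 26-nt tag 565, 3841 and 3470 reads (2.59). Of the reads with this start, the 24-nt form took 60.2% in anagen and 8.31% in catagen. The 20-nt tag had 7524, 1512 and 8593 reads (-2.49), or 470, 83.5 and 318 RPM. The 22-nt tag had 1834, 6629 and 5467 reads (1.67). In these 2 sets, chosen for their ratios, the shorter form led in anagen and a longer form in catagen.

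The other tags lowest in catagen were aattgacggaagggcaccaccaggagtg (5608 and 1155 reads, -2.46), cgtaagggaaagttgaaaag (5039 and 1174 reads, -2.28) and aaaagaactttgaagagagagttcaagagg (4317 and 1096 reads, -2.16). Tags high in catagen were gcagttaaaaagctcgtagttggat (1304 and 8281 reads, 2.49), gtccagttttcccaggaatccc (1914 and 9446 reads, 2.12) and cgtttcccgggcggcgcacca (1344 and 6180 reads, 2.02). The shortened annotation list used gives no name for any of these tags, and none is given here. No genome or rRNA sequence was compared with them, so whether any is a fragment of rRNA was not tested. Tags on no listed arm can thus include known miRNAs, also members of the lists above. A list member without an arm, such as let-7g or miR-92a, is not thereby shown to be unread. A list member with an arm can have better-read tags among those on no listed arm. A tag that begins 1 base later, gcagttaaaaagctcgtagttggat, belonged to the high side, as did the 25-nt and 26-nt tags printed above.

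Over all starts, 1087 groups of tags that share their first 18 bases had at least 1000 reads in both libraries, and 205 of these (18.9%) held both a tag called higher and a tag called lower with at least 100 reads in both libraries. On miRNA arms, mean length was greater in catagen in 57 of 72 groups. On no arm it was greater in 570 and smaller in 440 of 1015, so the longer ends in catagen were a feature of most miRNA arms and of a smaller majority of the other starts.

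Tags that end in CCA, the trinucleotide added to the 3′ end of mature tRNAs, were 3379 of the members on no arm. Of these, 34.3% were called higher and 5.98% lower, with a median log2 ratio of 0.98, beside 20.1% and 22.5% of the 65857 other tags (median 0.20). Their summed level was 24413 RPM (anagen), 42077 RPM (catagen) and 37156 RPM (telogen). The same direction was seen for tags of 18 to 20 nt, of 21 to 23 nt and of 24 to 30 nt, with medians of 0.89, 1.14 and 0.93. Tags of 18 to 20 nt that do not end in CCA had a median of -0.53.

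Of the members, 4742 had reads in 1 of the anagen and catagen libraries and 0 in the other, 1970 of them in anagen and 2772 in catagen. Telogen also held most of these, and 884 of the first and 932 of the second were not read there. Those of anagen without catagen reads had a median of 14 reads and those of catagen a median of 16. The 5 with the most reads in anagen had 2234, 837, 504, 376 and 335 reads and lengths of 22, 21, 20, 18 and 19 nt. The 5 in catagen had 14250, 5966, 798, 586 and 584 reads and lengths of 26, 21, 20, 33 and 32 nt, and of these the first had 2 reads and the next 1 read in telogen. No genome was used, so the organism of these tags was not determined and their sequences are not shown.

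Many of the tags seen in anagen and not in catagen were copies of an abundant tag with a single base changed. A tag counted as such a copy if a tag of the same length that differs at 1 base had at least 20 times its reads in the same library, which held for 997 of 1970 in anagen (50.6%) and 371 of 2772 in catagen (13.4%). C in place of A was found in 678 of the 997 copies in anagen and in 190 of the 371 in catagen. It lay at position 8, counted from the 5′ end of the tag, in 239 copies in anagen and in 0 in catagen. Examples are given with the base at position 8 in capitals, the abundant tag first.
miR-143 tag: tgagatgAagcactgtagct
its copy: tgagatgCagcactgtagct
miR-26a tag: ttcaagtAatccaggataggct
its copy: ttcaagtCatccaggataggct
The first copy, A8C, was read 504 times in anagen, 0 times in catagen and 3 times in telogen, and its parent 42672 in anagen and 9689 in catagen. The second, also A8C, had 291 reads in anagen and 1 in telogen, and its parent 32384 and 46805 reads.

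Over the 200 best-read tags of 20 to 24 nt, the share of reads with C in place of A at position 8 was 1.01% (anagen), 0.00295% (catagen) and 0.00574% (telogen). At position 15 it was 0.634% in anagen and 0.00677% in catagen, and at position 16 it was 0.276% and 0.00517%. Over positions 1 to 18 the shares were 0.0382%, 0.00475% and 0.00750%. Position 8 is the last base of the seed. Copies with 1% or more of the reads of their parent in telogen were left out of all libraries, which limits the telogen shares.

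**Figure D5:**
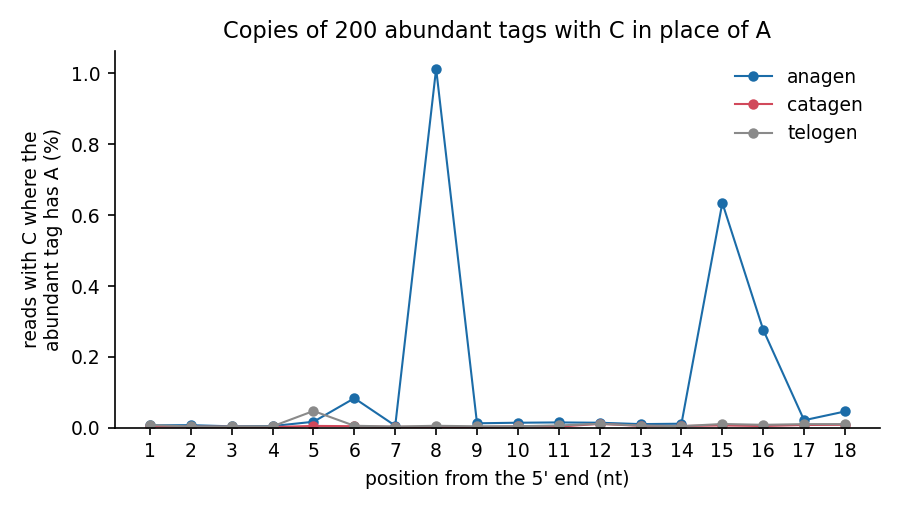
Reads with C where one of 200 abundant tags of 20 to 24 nt has A, as a percent of the reads of that tag (y axis), at each position from the 5′ end in nt (x axis) in the 3 libraries. Anagen has peaks of 1.01% at position 8 and 0.634% at position 15, catagen has 0.00295% and 0.00677% at these positions, and the highest telogen share is 0.0475% at position 5.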

How the data were processed

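Skin small RNA was read in 3 libraries, 1 for each stage, each from the pooled RNA of 10 adult goats. The authors isolated fragments of 18 to 30 nt by gel, sequenced them on an Illumina/Solexa instrument, removed low-quality reads, adapter contaminants, poly(A) reads and reads under 18 nt, and deposited each distinct tag with its count of reads, not normalised. No alignment or build enters these counts. The annotation lists of the authors, of which the copy used holds only part, gave sequences only.

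Members are tags with at least 10 reads in anagen or catagen. Listed tags that overlap by 14 nt or more were joined, and a tag counted for an arm with an 18-nt match, at most 3 extra bases at the 5′ end and 3 differing bases at the 3′ end. Tails are kept because some listed sequences end early. The reference end is the most abundant tag. The Audic-Claverie test and Clopper-Pearson intervals used scipy 1.17.1, and edgeR 4.0.16 gave an alternative with an assumed coefficient of variation of 0.4. The counting test with its interval and the assignment of tags to arms were tested on simulated data, and the other steps were not.

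Named are list members with the most reads, the 10 most-read arms, the 10 largest ratios in each direction among calls with 100 reads in both libraries, the 5 largest differences for variants and arm shares, and the 5 leading unlisted and single-library tags. Of the unlisted tags, 2 of the 5 highest in catagen are not reported here. Starts, tags ending in CCA and base changes were chosen after seeing values. Members and lists were chosen with earlier results of these data known.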

Additional observations from a re-analysis of the deposited data

How the results depend on the processing

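With 1 library for each stage, counting error was the sole error available, and no replicate could be left out. No paired analysis was possible because each stage has 1 library and no replicate number. Arms called were 86 as reported and 61 to 109 under scaling to arm reads, median-of-ratios size factors, no minimum, the ratio limit alone, tags of at least 21 nt, the best-read tag of each arm and totals without muscle reads (the last added after seeing the data). They were 51 with a minimum of 100 reads, where 178 arms were tested, and 20 with edgeR's exact test at an assumed coefficient of variation of 0.4. Called arms of the lists were 43, and 28 with median-of-ratios size factors, 28 with a minimum of 100 reads and 12 with edgeR. Called tags were 30725, and 8161 with a minimum of 100 reads. The share of reads of 18 to 20 nt in catagen over anagen was 0.715, and 0.897 over distinct tags and 0.694 over members alone. Arms with a lower share of shifted 5′ ends were 53.1%, and 39.5% at a minimum of 200 reads. Tags read in 1 of the anagen and catagen libraries were 4742, and 161 with a minimum of 100 reads. The ratio of miR-502a turned to 2.28 with tags of 21 nt or longer, and of the other checks of named arms 19 lost the call, 2 gained it and 203 did neither. Uncalled ratios also changed sign, for let-7b (0.10) with the most abundant tag, miR-101 (0.21) with tags of at least 21 nt, and miR-320a (-0.27) and miR-140 (-0.31) with median-of-ratios size factors. The cause of these changes was not tested, apart from the smaller number of tags that a higher minimum leaves.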

Other observations

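Other base changes were measured in the same copies of the 200 best-read tags. C in place of T was seen in 0.0422% (anagen) and 0.0198% (catagen) of reads, and T in place of C in 0.160% and 0.0775%. A in place of G was seen in 0.0245% and 0.00975%. G in place of A was seen in 0.0813% (anagen) and 0.0511% (catagen). At position 11 that change had 1.94% (anagen), 0.447% (catagen) and 0.0151% (telogen), the largest anagen share of any change at a single position. The changed reads there were 5595 in anagen and 7363 in catagen, beside 288310 and 1646701 reads of the abundant tags with A. The miR-1 tag, which has A at position 11, had 52510 and 1197524 reads. The share thus depends on which tags hold the reads, and the part of this in the difference was not tested. T in place of G was seen in 0.0378% and 0.0384%.

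The longest tags went against the trend of the 31-nt to 35-nt class. Reads of 36 to 44 nt were 12867 in anagen and 22545 in catagen, which is 0.0804% and 0.124% of the clean reads, beside 0.00896% in telogen.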
